A study of Homo sapiens with 10 samples.

Results

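The 54 genes described here encode proteins that copy DNA in S phase or that supply and mark the copied chromatin. They were chosen by name, with their introns and exons found in the deposited files through the splice sites of GENCODE release 44 on GRCh37. All 54 had at least 1 listed intron, among 10937 genes in the series, and they held 909 introns of 121373 given to 1 gene and 1643 exons of 267520. The cells were A549, a human lung adenocarcinoma line with mutant KEAP1. RNA polymerase II was slowed with α-amanitin, a mushroom toxin that binds the polymerase, at 1 or 2 μg/mL for 24 h, or with DRB, which blocks kinases needed for the paused polymerase to elongate, at 10 or 25 μg/mL. The control cells received DMSO, and each of the 5 conditions had 2 poly(A)+ RNA-seq libraries. No source used here gives how long the cells were kept in DRB or DMSO, and no label says that the replicates came from separate cultures, although the study's methods call them bioreplicates, so p-values measure the spread between libraries, which may be technical.

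Replication starts where the origin recognition complex binds. CDC6 and CDT1 then load the MCM2-7 helicase, which CDC45 and GINS activate, and primase, DNA polymerases α, δ and ε, the sliding clamp PCNA and its loader RFC build the new strands. FEN1 and LIG1 trim and join the Okazaki fragments, ribonucleotide reductase, TYMS and TK1 supply nucleotides, and CAF-1, NASP, DNMT1 and UHRF1 restore chromatin and methylation behind the fork. Many of these genes are transcribed in late G1 and S phase under E2F and RB proteins.

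The measure was the split read, a read that spans the junction of an intron that was removed. Levels are split reads of a gene as CPM, the usual scaling to library size, with TMM factors, and the DMSO levels differ slightly between the fits of the drugs. In every library the lowest total of a listed intron, over all split and unspliced reads at its splice sites, was 11 reads. A minimum above 10 reads was inferred from this, and no source used here states it. The study's methods also filtered split reads by offset entropy, annotation status and splice site dinucleotides, so an unlisted intron may hold more. An unlisted intron is therefore not an empty one, and a gene listed at 0 can still hold reads. Libraries had 2899344 to 6498515 split reads, the fewest in the first DRB 25 μg/mL library, which listed 45513 introns against 74739 and 75422 in DMSO. Of the markers checked, KRT8 and KRT18 and 4 to 7 of 7 genes typical of A549 were listed in each library, while EPCAM, KRT19, CDH1 and CLDN4 were not listed in any. Endothelial markers were unlisted, 0 to 2 of 6 immune markers were listed, and COL1A1 was the only fibroblast marker seen. In bulk RNA, fewer cells in S phase and less replication RNA per cell cannot be told apart.

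In DMSO the members covered a wide range of levels. PCNA, the clamp that ties polymerases to DNA, was highest at 57.8 CPM of split reads per intron, followed by TYMS, the enzyme that makes thymidylate, at 56.5. The highest of the other roles were MCM7 at 34.2, the histone chaperone NASP at 32, the polymerase δ subunit POLD2 at 28.1, the licensing inhibitor GMNN at 15.5, GINS2 at 15.1 and the fork protection protein TIMELESS at 10.8. POLA1, the catalytic subunit of polymerase α, was lowest at 0.458, and only 1 of its introns was listed in both DMSO libraries. PRIM2 shares sequence with a pseudogene, so its reads are uncertain.

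DRB at 25 μg/mL was compared with DMSO to see how replication transcripts stood relative to the rest of the RNA at the higher dose. Most of the 54 genes fell, with falls in every role, while the thymidylate enzymes TK1 and TYMS rose. Levels are relative to the other genes of a library, so a rise need not mean more RNA per cell. Of the 54, 5 rose and 40 fell past an adjusted p of 0.05, a share read against 61.3% of all 9501 genes tested, of which 20.2% rose and 41.1% fell. The median log2 fold change was -2.59 over the members and -1.01 over all genes, values that take unlisted introns as 0. In 43 members both DRB libraries lay below both DMSO libraries and in 6 they lay above, where the shares over all genes were 52.5% and 26.3%. The corresponding counts were 27 and 10 at DRB 10 μg/mL (32.1% and 35.4% of all genes), 24 and 10 at α-amanitin 2 μg/mL (27.4% and 31.3%) and 15 and 9 at 1 μg/mL (19.4% and 21.9%). Without the second DRB 25 μg/mL library, 21 of the 54 passed, against 26.7% of all genes.

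Many of the falls rest on unlisted introns, so they were tested again with those introns filled in. Over introns listed in both DMSO libraries, each intron missing from a treated library was set at 10 reads. That is the most it can hold if the inferred read minimum alone decides listing. On that scale 35 members still passed, 3 higher and 32 lower, against 44.5% of all genes, 22.5% higher and 22% lower. The median was -0.626 for the members and 0.0231 for all genes. All 3 rises and 31 of these falls had also passed before. In 15 members every such intron was missing from both DRB 25 μg/mL libraries, so both treated counts are set values. The tests of those members on this scale hold no measured spread between the DRB 25 μg/mL libraries. The filled-in reads raise treated levels, most where many introns are missing. Shares of rises and medians on this scale can therefore be too high, for members and for all genes. In inclusion reads of exons treated the same way, 5 of 53 members rose and 36 fell, against 52.5% of all genes, 25.9% higher and 26.6% lower. Over introns listed in every library 30 members could be tested, and 3 rose and 19 fell, against 62% of all genes, 30.6% higher and 31.4% lower. The least fall under that inferred minimum is given below as "at least", the lowest of 4 ratios of the DMSO mean over the treated mean. They were taken over introns listed in both DMSO libraries or in any library, with missing introns at 10 reads in treated and 0 in DMSO libraries, each on the TMM factors of both fits. The plot of log2 fold changes by role shows all 4 comparisons on this bounded scale.

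**Figure D1:**
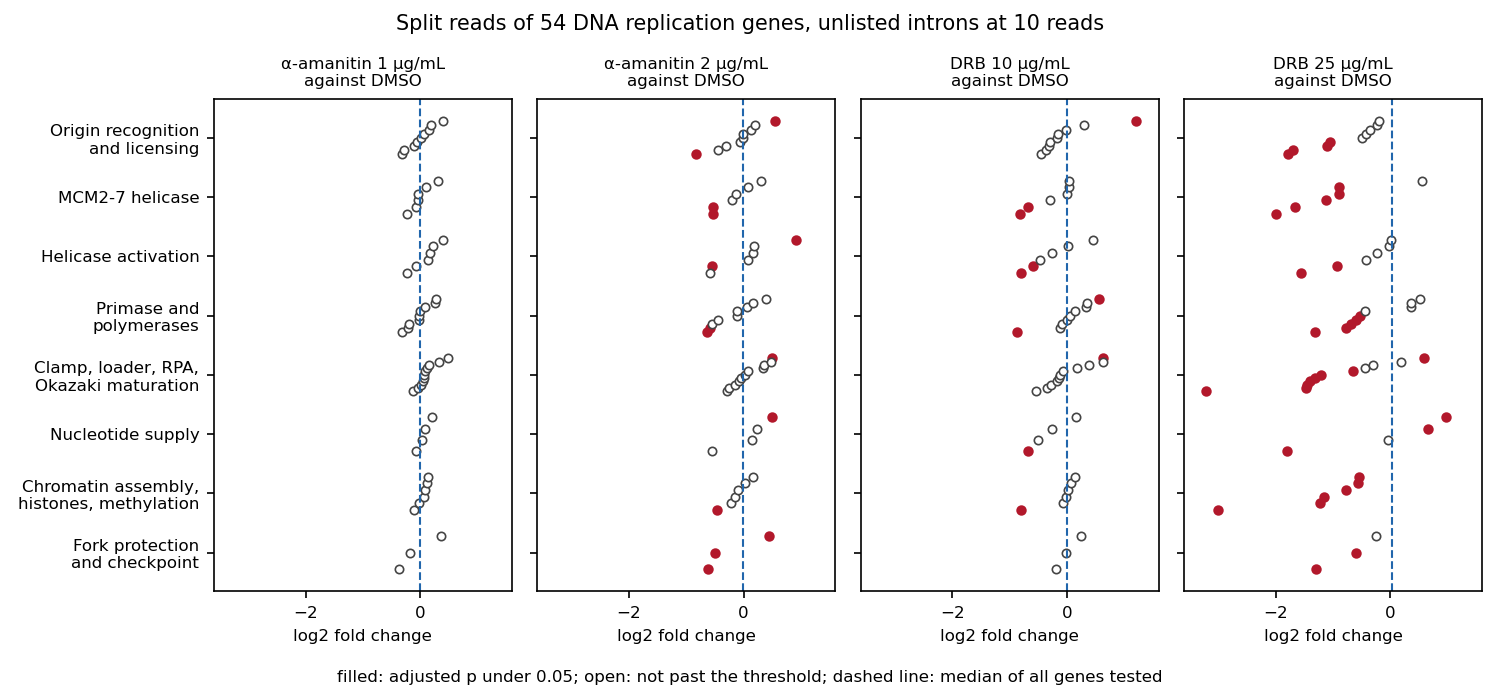
Log2 fold change of split reads against DMSO for each of the 54 genes, in rows by role and in 4 panels by treatment, with introns missing from a treated library set at 10 reads. Filled points passed an adjusted p of 0.05 and the dashed line is the median of all genes, and at DRB 25 μg/mL 32 points are filled on the left and 3 on the right.

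PCNA lost the most among members whose introns all stayed listed. It had 37.0 and 38.6 CPM in the DRB 25 μg/mL libraries, against 283 and 294 in DMSO. The libraries of the groups lay far apart, with a log2 fold change of -2.92 (SE 0.192, adjusted p = 0.000541), and PCNA was at least 6.28-fold lower. At DRB 10 μg/mL it stood at 238 and 247, a log2 difference of -0.25 that missed the threshold (adjusted p = 0.125). The gene lies at chr20:5095599-5107272 on GRCh37, on the minus strand, with 5 introns in its canonical transcript.

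NASP, which carries histones H3 and H4 to new chromatin, was not listed in either DRB 25 μg/mL library, against 504 and 393 CPM in DMSO. None of its 17 introns listed in both DMSO libraries appeared, and it was at least 6.51-fold lower. RRM2, the small subunit of ribonucleotide reductase, had 92.5 and 118 in DRB 25 μg/mL and 322 and 388 in DMSO, a log2 fold change of -1.72 (SE 0.178, adjusted p = 0.000842). Its partner RRM1, the large subunit, had 377 and 437 in DRB 25 μg/mL and 419 and 385 in DMSO, and the libraries overlapped (log2 difference 0.03, adjusted p = 0.84).

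TK1, which salvages thymidine, had 461 and 376 CPM in the DRB 25 μg/mL libraries, against 208 and 202 in DMSO. Both DRB libraries lay above DMSO, at a log2 fold change of 1.01 (SE 0.137, adjusted p = 0.00201). TYMS followed with 514 and 591 in DRB 25 μg/mL and 320 and 359 in DMSO, a log2 fold change of 0.71 (SE 0.119, adjusted p = 0.00422). Both kept their calls with unlisted introns at 10 reads, over introns listed in every library and in exon reads. With the total of split reads as the scale, which put the median of all genes at -1.49, TK1 alone of the 5 rises passed and TYMS stood at 0.23 (adjusted p = 0.106).

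FEN1, the flap nuclease, had 43.7 and 48.5 CPM in DRB 25 μg/mL and 21.0 and 22.9 in DMSO (log2 fold change 1.09, adjusted p = 0.0129), and over introns listed in every library its adjusted p was 0.0675. Of its 104 and 181 split reads in DRB 25 μg/mL, 31 and 42 came from an intron that neither DMSO library listed and that counted there as 0. The intron listed in every library had 73 and 139 split reads, against 96 and 118 in DMSO before scaling, so the value of 1.09 is inflated by listing. MCM5 had 547 and 618 in DRB 25 μg/mL, against 402 and 362 in DMSO. The polymerase δ catalytic subunit POLD1 had 248 and 337, against 192 and 196. With unlisted introns at 10 reads neither passed, with adjusted p of 0.0705 for MCM5 and 0.0701 for POLD1, while in exon reads both did.

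**Figure D2:**
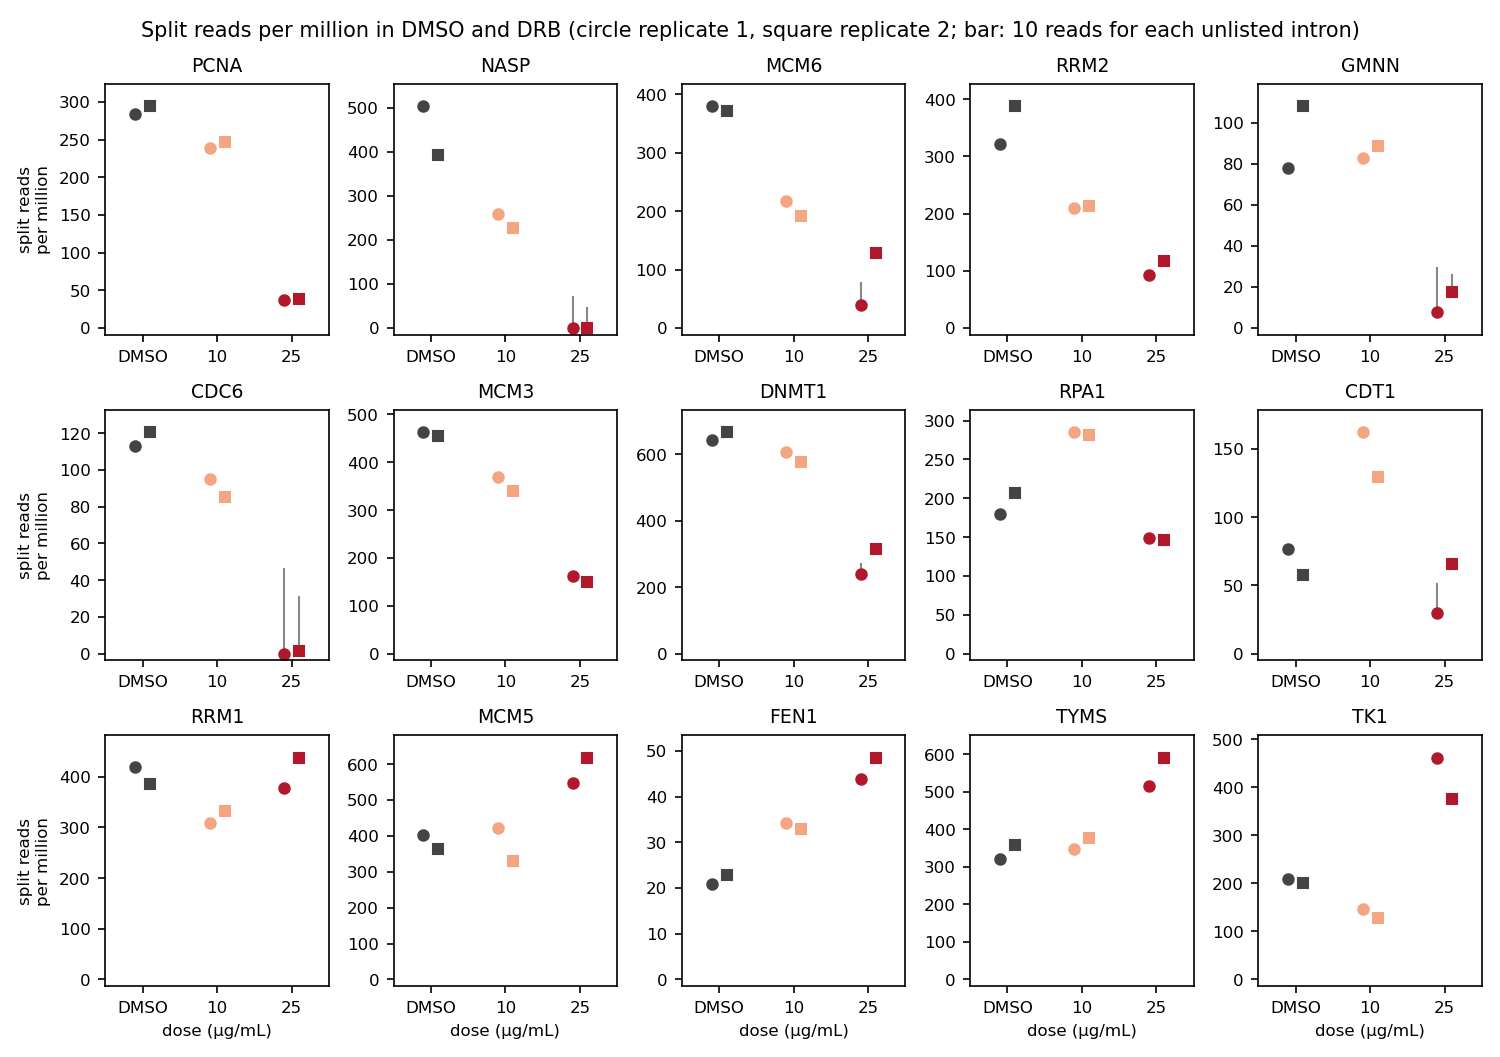
Levels of 15 replication genes in CPM of split reads in each library of DMSO and of DRB at 10 and 25 μg/mL, circles for replicate 1 and squares for replicate 2, with bars that add 10 reads for each intron the library does not list. PCNA and NASP sit near the bottom at 25 μg/mL, while TK1 and TYMS sit above DMSO.

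By role, the MCM2-7 helicase split unevenly at DRB 25 μg/mL. Its other 5 subunits fell while MCM5 rose, and 1 of the helicase's 93 introns listed in DMSO was lost from listing. MCM6 had 39.5 and 128 CPM in DRB 25 μg/mL and 379 and 372 in DMSO, at least 3.66-fold lower, with the lower value in the shallower library. MCM3 had 163 and 150 in DRB 25 μg/mL and 463 and 455 in DMSO, at least 2.87-fold lower. MCM4, MCM2 and MCM7 had log2 fold changes of -1.17, -0.83 and -0.82, and all introns of MCM2 and MCM7 seen in DMSO stayed listed.

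Origin recognition and licensing genes mostly fell below the listing minimum. Of 9, 7 fell and 2 did not pass, and with unlisted introns at 10 reads 4 fell and 5 did not pass. GMNN, the inhibitor of CDT1, had 7.99 and 17.7 CPM in DRB 25 μg/mL and 78.0 and 108 in DMSO, at least 3.4-fold lower. CDC6, which loads the helicase, was listed at 0 and 1.61 in DRB 25 μg/mL, against 113 and 121 in DMSO, at least 2.64-fold lower. ORC3 and ORC6 of the origin recognition complex were at least 1.65-fold and 1.87-fold lower. ORC2, ORC4 and ORC5 fell too but missed the threshold on the bounded scale, and ORC1 (5.47 and 58.4 in DRB 25 μg/mL, 71.0 and 68.0 in DMSO) and CDT1 (29.9 and 65.9, against 76.9 and 57.3) did not pass on either.

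All 6 genes of helicase activation fell, though with unlisted introns at 10 reads only CDC45 and GINS2 did. GINS2 had 6.31 and 22.8 CPM in DRB 25 μg/mL and 53.1 and 67.6 in DMSO, at least 2.89-fold lower. CDC45 was listed at 0 in both DRB 25 μg/mL libraries, against 96.5 and 108 in DMSO, at least 1.57-fold lower. GINS4, at 5.05 and 4.56 against 16.8 and 18.8, had a log2 fold change of -1.86 that was 0.01 with unlisted introns at 10 reads (adjusted p = 0.974), so its direction depends on that choice. GINS1, GINS3 and MCM10, which helps to activate the helicase, were no longer past the threshold on that scale either.

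Among primase and polymerase genes 1 rose, 6 fell and 2 did not pass, and 5 of the falls held with unlisted introns at 10 reads. PRIM1, the catalytic primase subunit, was listed at 0 in both DRB 25 μg/mL libraries, against 111 and 85.9 in DMSO, at least 2.04-fold lower. POLE, the catalytic subunit of the leading-strand polymerase ε, had 39.5 and 49.9 in DRB 25 μg/mL and 289 and 217 in DMSO, at least 1.33-fold lower. POLA2, the second subunit of polymerase α, was listed at 0 in both DRB 25 μg/mL libraries, against 85.2 and 92.3 in DMSO, at least 1.61-fold lower, and POLD3, of polymerase δ, was at least 1.23-fold lower. POLE2 was listed at 0 in both DRB 25 μg/mL libraries, against 63.8 and 81.4 in DMSO, at least 1.17-fold lower, and it missed the threshold with unlisted introns at 10 reads (adjusted p = 0.0804). POLD2, a δ subunit, had 302 and 482 in DRB 25 μg/mL and 271 and 290 in DMSO and did not pass (adjusted p = 0.109).

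The clamp, its loader, the single-strand binding protein RPA and the Okazaki enzymes had 1 rise, 8 falls and 2 members that did not pass. RFC1, the large subunit of the loader, was listed at 0 in both DRB 25 μg/mL libraries, against 114 and 115 in DMSO. All 5 RFC subunits fell, by at least 1.39-fold for RFC1 up to at least 2.34-fold for RFC3. RPA2 was listed at 0 and 10.2 in DRB 25 μg/mL, against 67.9 and 85.9 in DMSO, at least 2.4-fold lower. RPA1, the largest RPA subunit, had 149 and 146, against 180 and 207 in DMSO (log2 fold change -0.39, adjusted p = 0.0412), and with unlisted introns at 10 reads it missed the threshold (adjusted p = 0.116). RPA3 and LIG1 did not pass.

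Of the chromatin genes 5 fell, and with unlisted introns at 10 reads all 6 did. DNMT1, which copies methylation to the new strand, had 240 and 316 CPM in DRB 25 μg/mL and 644 and 668 in DMSO, at least 2.21-fold lower. UHRF1, which brings DNMT1 to the fork, had 145 and 162 against 235 and 273, at least 1.5-fold lower. The CAF-1 subunits CHAF1A and CHAF1B were at least 1.95-fold and 1.33-fold lower, CHAF1B being listed at 0 in both DRB 25 μg/mL libraries, against 52.2 and 57.3 in DMSO, while SLBP, which binds histone mRNA, had an adjusted p of 0.0911. Of the fork genes, CLSPN, the checkpoint mediator, was listed at 0 in both DRB 25 μg/mL libraries, against 109 and 113 in DMSO. TIPIN was also listed at 0 in both, against 45.9 and 49.5, and its partner TIMELESS (238 and 277 in DRB 25 μg/mL, 312 and 293 in DMSO) did not pass.

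Loss from listing counts the same missing introns on which many of the falls rest, so it adds no separate support, and it was not tested. Of 710 member introns listed in both DMSO libraries, 298 were listed in neither DRB 25 μg/mL library, 42% of the members' introns, against 33.2% of all introns. At DRB 10 μg/mL the members lost 15 (2.11%, against 3.62% of all introns), at α-amanitin 2 μg/mL 6 (0.845%, against 2.52%) and at 1 μg/mL 1 (0.141%, against 1.04%). At DRB 25 μg/mL 15 members lost every such intron and 22 lost none. Licensing genes lost 65 of 99 and primase and polymerase genes 91 of 147, whereas the MCM2-7 genes lost 1 of 93 and the nucleotide genes 0 of 39. A fixed minimum is reached sooner from a low level. In DMSO these roles spanned 3.14 to 15.5, 0.458 to 28.1, 13.7 to 34.2 and 22.3 to 56.5 CPM per intron, in that order. PCNA, at 57.8, lost no intron although it fell. The part of the DMSO level in the loss by role was not tested. By library, 13 members had no listed intron in either DRB 25 μg/mL library and 9 more had none in the first. Among introns with at least 20 split reads in each DMSO library, 177 of 554 were lost (31.9%, against 18.3% of all introns).

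**Figure D3:**
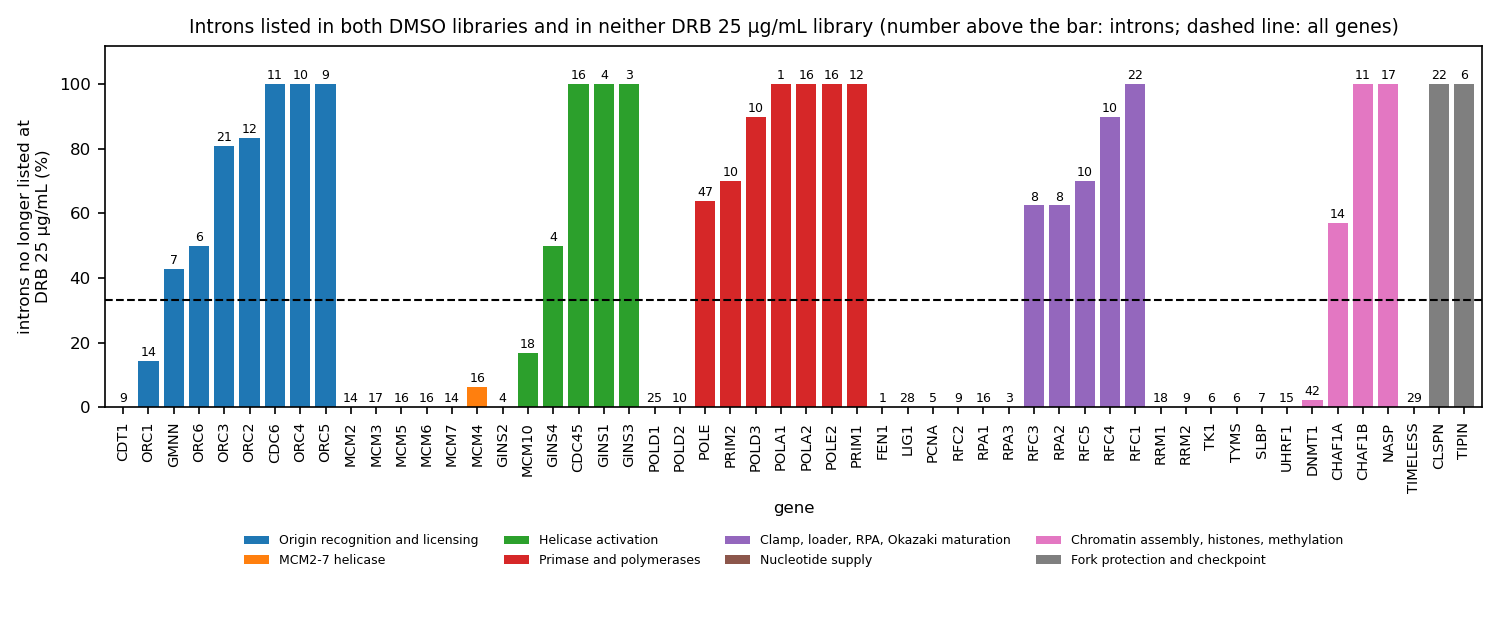
Share of each gene's introns that both DMSO libraries and neither DRB 25 μg/mL library listed, coloured by role, with the number of introns above each bar. The dashed line is the share over all genes, 33.2%, and MCM2, MCM3, MCM5, MCM6, MCM7 and all 4 nucleotide genes are at 0.

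At DRB 10 μg/mL, 2 of 54 rose and 5 fell, against 14.8% of all genes, 8.25% higher and 6.5% lower, with a median of -0.16 for the members and 0.03 for all genes. CDT1, the licensing factor, had 162 and 129 CPM in DRB 10 μg/mL and 76.9 and 57.3 in DMSO (log2 fold change 1.13, SE 0.263, adjusted p = 0.0443). RPA1 had 285 and 282 in DRB 10 μg/mL, against 180 and 207 in DMSO (log2 fold change 0.55, adjusted p = 0.0269). With unlisted introns at 10 reads CDT1 kept its call and RPA1 did not (adjusted p = 0.0535). Leaving out any of the 4 libraries left 0 of the 7 calls, and limma-trend in place of voom left 1.

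The falls at DRB 10 μg/mL were POLE2, CDC45, NASP, MCM7 and RRM2. POLE2, the second subunit of polymerase ε, had 6.12 and 24.9 in DRB 10 μg/mL and 63.8 and 81.4 in DMSO and lost 8 of 16 introns from listing, at least 1.7-fold lower. NASP stood at 258 and 226, against 504 and 393 in DMSO, and MCM7 at 303 and 267, against 493 and 465. RRM2 had 210 and 214 in DRB 10 μg/mL and 322 and 388 in DMSO. CDC45 had 57.7 and 44.6, against 96.5 and 108. All 5 also fell with unlisted introns at 10 reads, where 10 members passed, 3 higher and 7 lower, against 21.5% of all genes, 11.8% higher and 9.7% lower. Over introns listed in every library 4 of 30 rose and 6 fell (33.3% of all genes, 16.2% higher and 17.1% lower), and in exon reads 3 of 53 rose and 8 fell (24.2%, 12.7% higher and 11.5% lower).

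The doses of DRB were tested against each other in the same fit, which shares the DMSO libraries. At 25 against 10 μg/mL, 5 members rose and 37 fell, against 63.3% of all genes, 19.5% higher and 43.8% lower. TK1 had 461 and 376 CPM at the higher dose, against 146 and 129 at the lower (log2 fold change 1.6, adjusted p = 0.000564). Over introns listed in every library 4 of 30 rose and 19 fell, against 64.5% of all genes, 30.6% higher and 33.8% lower. RPA1 moved the other way, at 149 and 146 against 285 and 282 (log2 fold change -0.94, adjusted p = 0.00164).

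At α-amanitin 1 μg/mL 0 of 54 passed in limma, where 0% of all 9641 genes did, and 6 members had an unadjusted p under 0.05, against 10.1% of all genes (lowest adjusted p = 0.47 among members). At 2 μg/mL 1 rose and 7 fell, against 6.39% of all genes, 2.46% higher and 3.93% lower. Between the doses 0 members passed (0% of all genes) and 15 had an unadjusted p under 0.05, against 13% of all genes. In a fit of DMSO and 2 μg/mL alone, and without either DMSO library or the first 2 μg/mL library, 0 members passed, while 4 did without the second.

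GINS4, a subunit of the helicase activator GINS, had 18.7 and 20.9 CPM in DMSO, 26.6 and 31.8 at α-amanitin 1 μg/mL and 43.1 and 41.7 at 2 μg/mL. Its log2 fold change at 2 μg/mL was 1.09 (SE 0.211, adjusted p = 0.0358). ORC2, an origin recognition subunit, fell the most, with 19.1 and 31.0 at 2 μg/mL and 63.1 and 65.6 in DMSO, at least 1.63-fold lower (adjusted p = 0.0343). MCM7 had 329 and 352 at 2 μg/mL and 547 and 517 in DMSO (log2 fold change -0.64, SE 0.0888, adjusted p = 0.0211).

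The other falls at α-amanitin 2 μg/mL were MCM3, CDC45, the polymerase δ subunit POLD3, PRIM1 and TIMELESS, with log2 fold changes of -0.64, -0.69, -0.80, -0.72 and -0.60. MCM3 had 295 and 361 CPM at 2 μg/mL and 515 and 505 in DMSO, and TIMELESS had 199 and 247 at 2 μg/mL and 347 and 326 in DMSO. CDC45 had 65.6 and 75.5 at 2 μg/mL and 107 and 120 in DMSO. In each of the 7 that fell, both libraries at 2 μg/mL lay below both DMSO libraries. POLD3 had 33.3 and 35.7 at 2 μg/mL and 54.6 and 65.8 in DMSO, and PRIM1 had 64.1 and 67.0 at 2 μg/mL and 123 and 95.4 in DMSO. All 8 calls held with unlisted introns at 10 reads, where 14 members passed, 5 higher and 9 lower, against 19.4% of all genes, 9.37% higher and 10% lower. The added rises were ORC1, RFC5, TK1 and CLSPN. Over introns listed in every library 5 of 53 rose and 10 fell (17.1% of all genes, 8.08% higher and 8.98% lower), and in exon reads 5 rose and 9 fell (18.8%, 8.74% higher and 10.1% lower), with the same 5 rises. PCNA (300 and 305 at 2 μg/mL, 315 and 327 in DMSO), MCM5 and TYMS did not pass at either dose.

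**Figure D4:**
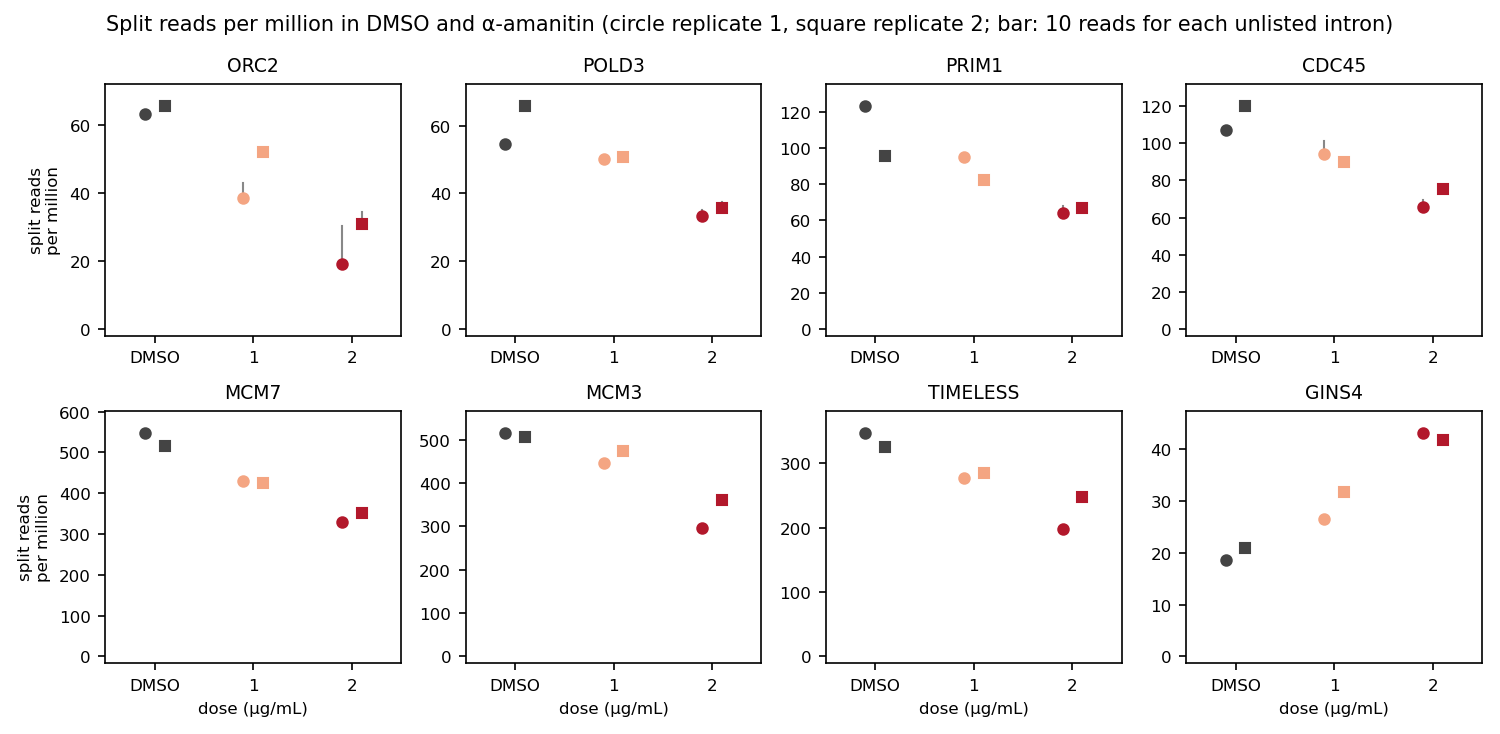
Levels in CPM of split reads of the 8 members that passed at α-amanitin 2 μg/mL, in each library of DMSO and of 1 and 2 μg/mL, circles for replicate 1 and squares for replicate 2, with bars that add 10 reads for each unlisted intron. GINS4 is above DMSO in both 2 μg/mL libraries and the other 7 genes are below it.

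Unspliced reads were compared with split reads of the same introns to see whether the remaining RNA was less spliced. In a quasi-binomial model with limma-moderated dispersion 0 members passed in any of the 4 comparisons, against 0% of all genes in the first 3 and 0.119% at DRB 25 μg/mL. Unadjusted p under 0.05 came to 2 and 6 of 54 at α-amanitin 1 and 2 μg/mL (3.98% and 6.73% of all genes) and to 4 and 9 of 32 at DRB 10 and 25 μg/mL (8.64% and 17.7%). FEN1, chosen after its values were seen, had the lowest p of the members at α-amanitin 2 μg/mL and both DRB doses but did not pass (adjusted p = 0.161, 0.14 and 0.0751). Its unspliced reads numbered 347 and 408 at α-amanitin 2 μg/mL, 286 and 391 at DRB 10 μg/mL and 87 and 128 at DRB 25 μg/mL, against 0 and 0 in DMSO. Nearly all of them lay at the ends of an intron at chr11:61563868-61564394 on GRCh37 that neither DMSO library listed, so the DMSO reads there are not known and no difference is read from these values.

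Exon inclusion was taken as inclusion reads over inclusion plus 2 times skipping reads. The smallest junction count above 0 was 3 reads in every library, so 0 skipping reads or an inclusion of 1 can hide fewer than 3 reads. At α-amanitin 1 and 2 μg/mL 0 of 52 member exons passed in a quasi-binomial model with limma-moderated dispersion, against 0% and 0.0296% of all exons. Of them, 16 and 25 had an unadjusted p under 0.05 (11.5% and 25.4% of all exons). At DRB 10 μg/mL it was 0 of 47 (0.028% of all exons), with 7 at an unadjusted p under 0.05 (21.1%). On log odds in limma, 8 passed at α-amanitin 2 μg/mL (4.04% of all exons) and 3 at DRB 10 μg/mL (9.06%). At DRB 25 μg/mL 41 of 47 passed in 9 genes, 6 higher and 35 lower, where 51.4% of all exons did, 7.73% higher and 43.7% lower. Of these 41, 33 had no skipping reads in DMSO, so they entered the test through skipping under DRB, 26 were overlapping exons of POLD2, and leaving out any of the 4 libraries left 0.

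Coding exons of MCM6, RFC2 and PCNA had skipping reads in treated libraries and none counted in DMSO. Their sequences are shown because each exon is the item measured, from the minus strand of GRCh37, where all 3 genes lie, 5′ to 3′, with 20 bases of intron before and 8 after, and with the AG and GT of the splice sites in capitals.
MCM6 exon 16, chr2:136602107-136602274: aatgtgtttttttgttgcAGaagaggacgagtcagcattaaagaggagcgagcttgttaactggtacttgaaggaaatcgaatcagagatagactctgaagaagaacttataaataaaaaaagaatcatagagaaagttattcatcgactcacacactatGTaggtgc
PCNA exon 3, chr20:5099248-5099343: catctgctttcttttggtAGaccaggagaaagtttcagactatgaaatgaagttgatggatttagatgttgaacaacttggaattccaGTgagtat
RFC2 exon 5, chr7:73660984-73661113: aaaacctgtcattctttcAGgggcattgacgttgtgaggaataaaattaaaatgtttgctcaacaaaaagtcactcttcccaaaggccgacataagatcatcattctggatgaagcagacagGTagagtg

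MCM6 exon 16 of 17 has 140 bases, which 3 does not divide. Skipping reads numbered 0 and 0 in DMSO, 9 and 9 at the lower dose of α-amanitin, 24 and 19 at its higher dose, 14 and 14 at DRB 10 μg/mL and 4 and 8 at DRB 25 μg/mL. Its inclusion was 0.60 and 0.784 at DRB 25 μg/mL, against 1.000 and 1.000 in DMSO, and at α-amanitin 2 μg/mL it was 0.791 and 0.884. Every treated library was below both DMSO libraries, but exons with no skipping in DMSO met the filter only through treated libraries, so these values and those of PCNA and MCM3 are given without a test.

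RFC2 exon 5, of 102 bases, had no skipping reads in DMSO and an inclusion of 0.765 and 0.824 at α-amanitin 1 μg/mL, 0.815 and 0.768 at 2 μg/mL and 0.80 and 0.835 at DRB 10 μg/mL. In DRB 25 μg/mL it was unlisted in the first library and 0.459 in the second, so it was not tested there. PCNA exon 3 of 6, of 68 bases, had no counted skipping reads except at DRB 25 μg/mL, where inclusion was 0.382 and 0.667, from 21 and 44 inclusion reads and 17 and 11 skipping reads. MCM3 exons 11 and 12 likewise had skipping reads in both DRB 25 μg/mL libraries, 7 and 9 each.

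NASP exon 6, of 1017 bases and chosen after its values were seen, stood at 0.083 and 0.089 in α-amanitin 2 μg/mL and 0.065 and 0.080 in DRB 10 μg/mL, against 0.217 and 0.174 in DMSO. It did not pass (adjusted p = 0.102 at α-amanitin 2 μg/mL). An alternative ORC3 exon of 87 bases was included at 1.000 and 1.000 in DRB 25 μg/mL, against 0.101 and 0.152 in DMSO. The DRB values rest on 26 and 39 inclusion reads and 0 counted skipping reads. DMSO had 11 and 14 inclusion reads and 49 and 39 skipping reads. ORC3 lost 17 of 21 introns from listing at that dose, so the exon describes only the part of the gene still listed.

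**Figure D5:**
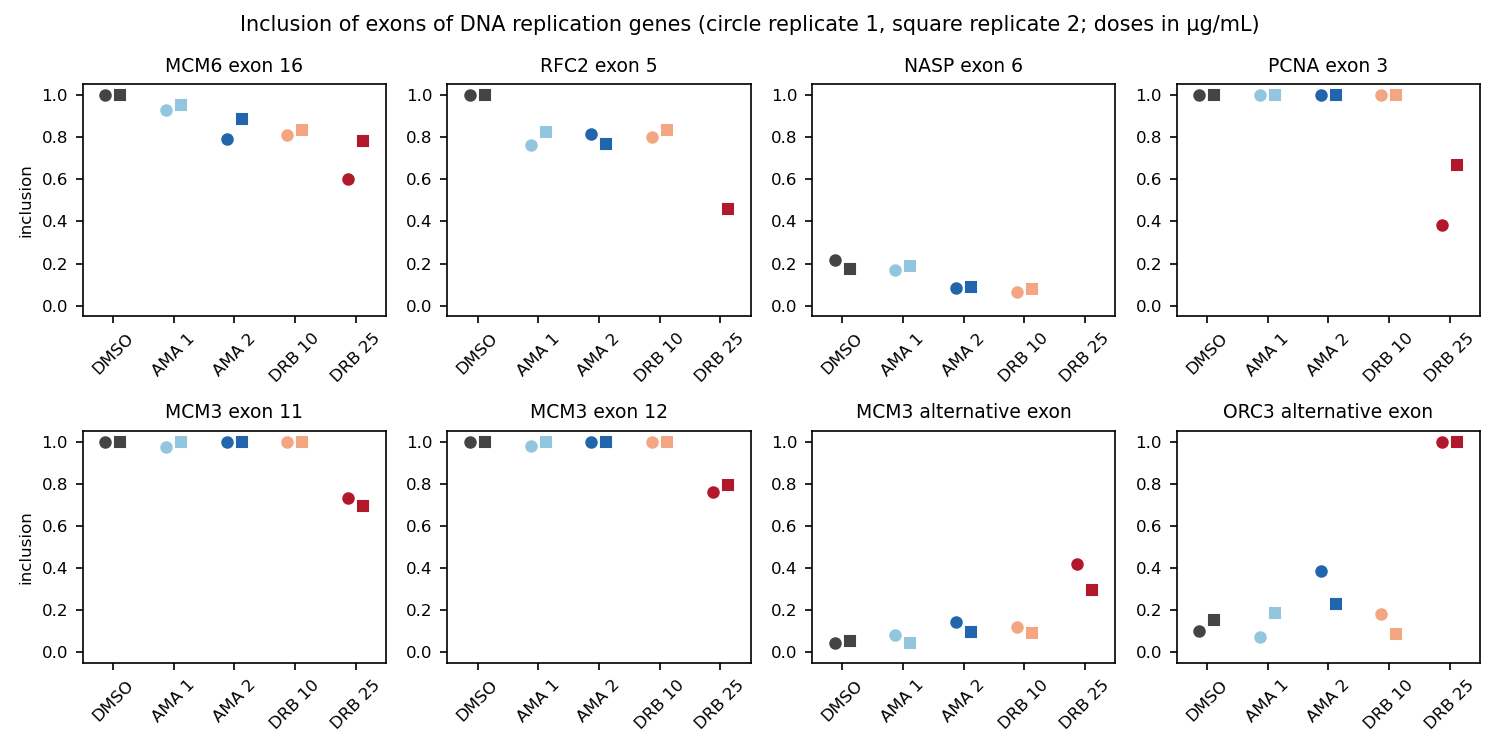
Inclusion of 8 exons of replication genes in each library of the 5 conditions, circles for replicate 1 and squares for replicate 2, with unlisted values left out. MCM6 exon 16 and RFC2 exon 5 are at 1 in DMSO and below it in every listed treated library, and PCNA exon 3 is below 1 only at DRB 25 μg/mL.

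The promoters were searched for letters that the members share. RefSeq on GRCh38.p14 gave the 250 bases before the start for 48 of the 54 genes and for 35116 genes in all. The 35116 were not limited to genes listed in this series, so shares among listed genes may differ and were not taken. CCAAT on either strand was in 28 of the 48 (58.3%) and in 32% of all promoters, and GGGCGG, the SP1 letters, in 34 (70.8%) and 42.6%. An E2F match, TTTGGCGC or TTTCGCGC on either strand, was in 5 (10.4%) and 0.968%, and TTTGAA was in 1 (2.08%) and 13.3%. Of 29 matched members that fell with unlisted introns at 10 reads 19 held CCAAT and 4 the E2F letters, of 16 that did not pass 9 and 1, and of the 3 that rose 0 and 0. GGGCGG was in 19 of the 29 that fell, 14 of the 16 that did not pass and 1 of the 3 that rose. A match is a description of these letters and not a site in use.
The promoters of PCNA, MCM6 and NASP, which had the largest bounded falls, and of TK1, which rose the most on that scale, are shown with CCAAT or its reverse ATTGG and the E2F letters in capitals, where in MCM6 the forward and reverse E2F matches overlap.
PCNA, chr20:5126623-5126872, minus strand: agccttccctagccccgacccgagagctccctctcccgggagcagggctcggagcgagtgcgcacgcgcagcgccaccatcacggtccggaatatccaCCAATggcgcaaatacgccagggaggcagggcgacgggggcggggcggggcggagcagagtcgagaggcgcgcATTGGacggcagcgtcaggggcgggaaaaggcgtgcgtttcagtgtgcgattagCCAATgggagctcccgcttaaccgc
MCM6, chr2:135876444-135876693, minus strand: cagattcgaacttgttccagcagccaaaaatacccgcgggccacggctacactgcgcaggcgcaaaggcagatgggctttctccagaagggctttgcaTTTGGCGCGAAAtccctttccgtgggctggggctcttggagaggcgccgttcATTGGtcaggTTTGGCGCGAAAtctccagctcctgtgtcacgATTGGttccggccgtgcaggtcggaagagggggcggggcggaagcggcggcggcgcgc
NASP, chr1:45583791-45584040, plus strand: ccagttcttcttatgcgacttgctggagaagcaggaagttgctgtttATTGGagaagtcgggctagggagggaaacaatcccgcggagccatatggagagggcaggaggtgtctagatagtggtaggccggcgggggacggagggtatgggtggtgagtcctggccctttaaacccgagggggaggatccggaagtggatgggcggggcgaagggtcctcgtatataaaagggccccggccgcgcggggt
TK1, chr17:78187205-78187454, minus strand: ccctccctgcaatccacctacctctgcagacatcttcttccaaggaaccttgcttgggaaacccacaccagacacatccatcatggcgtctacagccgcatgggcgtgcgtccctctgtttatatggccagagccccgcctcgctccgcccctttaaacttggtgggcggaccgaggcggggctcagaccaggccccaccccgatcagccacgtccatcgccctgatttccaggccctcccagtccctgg

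GC content moved with the bounded fold change at DRB 25 μg/mL across genes. The 3 members that rose had a median of 52.2% GC in the canonical transcript, the 19 that did not pass 47.1% and the 32 that fell 46.1%. Spearman's rho with the log2 fold change was 0.28 over the 54 members and 0.21 over 8008 genes, as a description across genes that share libraries, and the part of GC in the falls was not tested.

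Other genes of the pathway moved in the same fit. Of 50 further replication genes 48 were tested at DRB 25 μg/mL, and 4 rose and 29 fell (20.2% and 41.1% of all genes). With unlisted introns at 10 reads 5 of 45 rose and 20 fell, against 22.5% and 22% of all genes. The clamp loader cofactor CHTF8 had 113 and 110 CPM, against 17.3 and 16.9 in DMSO, and the histone chaperone SUPT16H had 1120 and 1030, against 592 and 550. At DRB 10 μg/mL 2 rose and 3 fell (8.25% and 6.5% of all genes), and at α-amanitin 2 μg/mL 2 of 50 rose and 2 fell (2.46% and 3.93%). TOP2A, the topoisomerase that untangles chromosomes, had 578 and 632 at DRB 10 μg/mL, against 1240 and 1400 in DMSO, and 547 and 703 at α-amanitin 2 μg/mL, against 1370 and 1550.

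Of 18 E2F and RB family genes 1 was called higher and 11 lower at DRB 25 μg/mL (20.2% and 41.1% of all genes), and with unlisted introns at 10 reads 0 of 15 rose and 3 fell (22.5% and 22%). The gene called higher was E2F7, a repressor of E2F targets, with 39.1 and 54.4 CPM, while DMSO listed it at 0 in both libraries. E2F7 had 5.25 and 3.92 at DRB 10 μg/mL, and E2F8 was listed at 0 in both libraries, against 11.8 and 25.1 in DMSO. In these comparisons each was listed in 1 of the groups only and met the filter through it, so no direction is read for them. At α-amanitin 2 μg/mL the only call was E2F4, which fell to 57.6 and 62.4, against 91.5 and 92.6 in DMSO, and 0 of either list passed at 1 μg/mL.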

How the data were processed

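Poly(A)+ RNA of A549 cells was made into directional libraries and sequenced at 75 bp. The authors aligned reads to GRCh37 with STAR (2.7.3a per the submitters' processing notes, while the study's methods name another version). They counted junctions with IPSA and filtered split reads by offset entropy, annotation status and splice site dinucleotides. The deposited files hold, per library and not normalized, counts of split and unspliced reads for each intron and of inclusion, skipping and retention reads for each exon. Introns were given to genes by GENCODE release 44, leaving out those shared by genes. Split reads were summed per gene and tested with limma 3.58.1 (voom, TMM scaling, R 4.3.3), in 1 fit per drug of 6 libraries, keeping genes that reached 10 reads in 2 libraries and a sum of 15, Benjamini-Hochberg adjusted over all genes at 0.05. Unspliced ratios and exon inclusion (denominators of at least 10) used a quasi-binomial model with limma-moderated dispersion, floor 1. The code was tested on simulated data. Genes named were the 8 largest rises and falls past the threshold, with non-overlapping libraries and a mean of at least 50 split reads, the highest of each role per intron, and exons past the threshold or of lowest p. Members and lists were chosen with earlier results of these data known. Setting unlisted introns or exons at 10 reads, and using exon reads, were chosen after seeing the data. The result for 1 exon is not reported here.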

Additional observations from a re-analysis of the deposited data

Results flagged for a closer look

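Among members testable over introns listed in every library, both replicates of 3 lay on opposite sides of DMSO at the 2 doses of DRB, and the doses differed by limma's test of the contrast. TK1 was higher at 25 than at 10 μg/mL, with a log2 fold change of 1.6 (adjusted p = 0.000564), with 1.01 for the higher and -0.59 for the lower dose against DMSO, and over introns listed in every library the dose difference was 1.34 (adjusted p = 6.89e-07). RPA1 was lower at 25 μg/mL, with -0.942 (adjusted p = 0.00164), with -0.39 for the higher and 0.55 for the lower dose, and -1.2 over introns listed in every library (adjusted p = 1.67e-06). GINS4 was lower, with -2.61 (adjusted p = 0.00181), from -1.86 for the higher and 0.75 for the lower dose, but 5 of its introns, summed over both 25 μg/mL libraries, were unlisted, and over introns listed in every library the dose difference was -0.92 (adjusted p = 0.0261). At 10 μg/mL against DMSO, RPA1 passed (adjusted p = 0.0269) and TK1 and GINS4 did not. The RPA1 call at 10 μg/mL was lost when any library of that comparison was left out. With unlisted introns at 10 reads RPA1 missed the threshold against DMSO at both doses. With unlisted introns at 10 reads the log2 fold change of GINS4 at 25 μg/mL was 0.0138, so on that scale it was not below DMSO. What lies behind these differences was not tested.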

How the results depend on the processing

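Of the named genes' values 1 reversed, GINS4 at DRB 25 μg/mL, whose log2 fold change was 0.0138 with unlisted introns at 10 reads. At α-amanitin 2 μg/mL the 8 member calls became 15 over introns listed in every library, 14 with unlisted introns at 10 reads, 14 in exon reads with unlisted exons at 10 and 13 with them at 0, and 0 in a fit of DMSO and that dose alone. At DRB 10 μg/mL the 7 calls became 1 with limma-trend, 17 in a fit of DMSO and that dose alone, 11 with all libraries in 1 fit, 11 in exon reads with unlisted exons at 10 and 0 with them at 0. Over introns listed in every library, DRB 25 μg/mL had 22 calls of 30 tested and the dose contrast 23. Leaving out a library gave 0 to 4 calls at α-amanitin 2 μg/mL, 0 to 0 at DRB 10 μg/mL, 21 to 36 at DRB 25 μg/mL and 19 to 36 between DRB doses, and 0 to 0 exons at DRB 25 μg/mL. With at least 50 reads the unspliced ratio gave 1 call at DRB 25 μg/mL. On log odds, 8 exons passed at α-amanitin 2 μg/mL and 3 at DRB 10 μg/mL. With at least 20 split reads in DMSO, the introns lost were 0, 0, 1 and 177 at α-amanitin 1 and 2 and DRB 10 and 25 μg/mL, and leaving out a library gave 2 to 18, 9 to 26, 20 to 37 and 303 to 398.

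The replicates share only a number. Samples with the same number as a DMSO library deviated together with correlations of 0.319 and 0.398 for α-amanitin and 0.203 and 0.0528 for DRB at the lower and higher doses. With the replicate block the calls were 18 at α-amanitin 2 μg/mL, 5 higher and 13 lower (22.2% of all genes), 2 at DRB 10 μg/mL (10.4%) and 0 exons at DRB 25 μg/mL. The cause of these moves was not tested. The limits are the depth, with 2 libraries a condition and introns under the listing minimum, so that many of the DRB 25 μg/mL falls are bounds and rises of low genes are less certain than those of high ones.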
